A study of Mus musculus with 7 samples.

Results

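miR-124 and miR-128 are miRNAs of neurons, and their 5 mature arms were followed here in small RNA libraries from lateral ventricles with choroid plexus of adult C57BL/6J mice. The rows mmu-miR-124-3p, mmu-miR-124-5p, mmu-miR-128-3p, mmu-miR-128-1-5p and mmu-miR-128-2-5p are 5 of the 1914 mouse miRNA rows in each count table, and all 5 passed the filter on low counts that left 534 rows. They were chosen by name, with their levels in these libraries and the difference of miR-128-3p between genotypes already known. Those levels and differences are therefore a description, and nothing is rested on their p-values. The libraries are 4 with the genotype label TAp73 Knock-out and 3 wild types, called knockouts and wild types here. TAp73 is the transactivating form of the transcription factor p73, which multiciliated cells need. The labels give no allele, no age beyond adult, and no word on pooling or on whether each library is a separate animal, so p-values reflect only how far these libraries spread, which may be technical. Trp73 mRNA cannot be read from small RNA, so the knockout was not checked at its target.

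A miRNA is cut from a hairpin whose 2 strands give a 5p and a 3p arm, and the arm kept by Argonaute is usually the more abundant. Its seed, bases 2 to 8, pairs with target mRNAs. miR-124 is among the most abundant miRNAs of neurons and holds down transcripts of other cell types, among them the splicing regulator Ptbp1. miR-128 is enriched in brain and is known for damping neuronal excitability in mice. In a dissection of ventricle wall and choroid plexus, both are read here as a measure of the neural tissue that came with the epithelia. That reading is an assumption, and whether the 2 measure the same tissue was not tested.

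The mature arms of miR-128 are shown because the 5p arms are what tells its 2 gene copies apart. RefSeq's table for build GRCm38.p6 held 3 of the 5 arms, those of miR-128. Capitals mark the seed in the following lines, which also give miR-27a-3p and miR-27b-3p for comparison.
mmu-miR-128-3p: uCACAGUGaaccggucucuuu
mmu-miR-128-1-5p: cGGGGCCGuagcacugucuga
mmu-miR-128-2-5p: gGGGGCCGaugcacuguaagaga
mmu-miR-27a-3p: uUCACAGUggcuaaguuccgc
mmu-miR-27b-3p: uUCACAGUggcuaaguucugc

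The 3p arm is identical from both copies, so its row sums them. The 5p arms share the seed GGGGCCG and differ at 5 of the 21 positions compared (C1G, U9A, A10U, C18A and U19A, with the miR-128-1-5p base first and positions counted from 1 at the 5′ end). Among 1679 mature mouse miRNA names in the table, the seed CACAGUG belonged to miR-128-3p alone and GGGGCCG to the 2 miR-128 5p arms alone. The first 8 bases of miR-128-3p also begin at base 2 of miR-27a-3p and miR-27b-3p, so these seeds overlap with a shift of a single base. The same 8 bases also occur further in, from base 5 of miR-3073b-5p, base 7 of miR-682 and base 8 of miR-101a-5p. miR-27b-3p, a broadly expressed miRNA, averaged 30390 ± 2953 counts per 1000000 mouse miRNA reads (CPM) in knockouts, against 28096 ± 1468 CPM in wild types (SD, n = 4 and 3). It was thus more abundant than miR-128-3p, whose values follow.

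The hairpins, with both arms in capitals, carry the shared 3p arm behind loops of equal length but unlike sequence.
Mir128-1: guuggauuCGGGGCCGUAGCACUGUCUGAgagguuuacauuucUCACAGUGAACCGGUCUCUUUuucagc
Mir128-2: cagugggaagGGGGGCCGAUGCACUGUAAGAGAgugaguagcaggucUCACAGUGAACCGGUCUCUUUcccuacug

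In the GENCODE annotation of GRCm38, Mir128-1 lies at chr1:128202361-128202430 on the plus strand, inside the protein-coding gene R3hdm1 and on its strand. Mir128-2 lies at chr9:112118636-112118711 on the minus strand, inside Arpp21 and on its strand. Neither hairpin overlaps an exon of any of the 16 R3hdm1 or 31 Arpp21 transcripts, so both are intronic. miR-124 has 3 loci. Mir124a-1 (chr14:64590657-64590741, plus strand) overlaps an exon in 2 of 4 transcripts of the long noncoding gene Mir124a-1hg, and Mir124a-2 (chr3:17795662-17795770, plus strand) in 1 of 7 of Mir124-2hg. Mir124a-3 (chr2:180894040-180894107, plus strand) overlaps only the start of the long noncoding gene Gm27032, which begins at position 180894105. The files hold a single row for each miR-124 arm, so its loci cannot be told apart by counts.

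Knockout libraries held 969106 to 9343921 assigned reads and wild type libraries 2238917 to 3692879, of which 98.6% to 99.0% were mouse miRNAs. A count of 0 allows up to 3 reads, or 3.14 CPM in the shallowest library, knockout replicate 3, and 0.325 CPM in the deepest, counting error only. The tissue markers were present: miR-204-5p, of choroid plexus epithelium, stood at 2006 to 7429 CPM in knockouts, against 2009 to 11775 CPM in wild types. Knockout replicate 3 and wild type replicate 2 stood apart with the 2 low values, so calls of the members are also given without both. Of multiciliated cells, miR-34c-5p averaged 452.2 ± 109.2 CPM in knockouts, against 2537 ± 1199 CPM in wild types (SD, n = 4 and 3). miR-449a-5p, of the same cells, went the other way, at 129.4 ± 61.6 CPM in knockouts, against 22.2 ± 5.1 CPM in wild types.

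The 5 arms together took 2.57%, 2.68%, 2.87% and 2.63% of mouse miRNA reads in knockouts 1 to 4, against 1.97%, 2.52% and 1.42% in wild types 1 to 3. miR-128-3p was the most abundant member and was higher in each knockout library than in any wild type library. It stood at 19444, 18719, 18368 and 17802 CPM in knockout replicates 1 to 4, against 10670, 16667 and 8795 CPM in wild type replicates 1 to 3. The knockouts lay close together, with an SD of 3.70% of their mean, while the wild types spread over an SD of 34.1%. Wild type replicate 2 was near the knockouts and the other 2 wild types were well below them. Its rank among mouse miRNAs by reads was 12 to 14 in knockouts and 14 to 22 in wild types.

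The means of miR-128-3p were 18583 ± 687.4 CPM over the 4 knockouts, against 12044 ± 4112 CPM over the 3 wild types (SD). In edgeR's quasi-likelihood fit the log2 fold change was 0.70 ± 0.20 (SE), a 1.62-fold higher level with a 95% interval of 1.20 to 2.18, and an adjusted p of 0.15. It was not called. Of the 534 miRNAs tested, 6 (1.12%) were called at an adjusted p under 0.05, and 0 of the 5 members were among them. At an unadjusted p under 0.05 there were 3 members, the miR-128 arms, and 69 of all 534 (12.9%). These 3 arms come from the same 2 hairpins and are not independent. DESeq2 called 0 of the 5 members and 14 of the 440 miRNAs it gave an adjusted p (3.18%), and limma-voom 0 of the 5 and 5 of the 534 (0.936%). miR-128-3p was the only member whose groups did not overlap, where 19 of the 534 (3.56%) had all knockouts above all wild types. Without wild type replicate 2 it was called, at 1.04 ± 0.12 (edgeR adjusted p = 0.0012), in a fit that called 14 of 547 miRNAs (2.56%). Without that library and knockout replicate 3 it was called at 1.04 ± 0.14 (edgeR adjusted p = 0.0015), in a fit that called 19 of 538 (3.53%). With any of the other 6 libraries left out singly it was not called, at 0.49 to 0.71 (edgeR adjusted p = 0.24 to 0.35). Both calls left out wild type replicate 2, the highest wild type in miR-128-3p at 16667 CPM. Leaving out that library raises the fold change and narrows the wild types by construction, so these calls are no added support.

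The 5p arms of miR-128, read from its 2 gene copies, leaned the same way with overlapping groups. miR-128-1-5p, the arm of the R3hdm1 copy, stood at 252.8, 276.4, 207.3 and 294.5 CPM in knockouts 1 to 4, against 175.3, 250.5 and 102.5 CPM in wild types 1 to 3. Of the 4 knockouts, 3 lay above every wild type, and knockout replicate 3 lay below wild type replicate 2. Its log2 fold change was 0.63 ± 0.27 (edgeR adjusted p = 0.38).

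miR-128-2-5p, the arm of the Arpp21 copy, stood at 28.5, 33.4, 36.6 and 36.6 CPM in knockouts 1 to 4, against 22.6, 29.8 and 12.6 CPM in wild types 1 to 3. Here too 3 of 4 knockouts lay above every wild type, with knockout replicate 1 just below wild type replicate 2. The log2 fold change was 0.72 ± 0.28 (edgeR adjusted p = 0.38), on 35 to 263 reads per knockout library and 46 to 66 per wild type library. Without wild type replicate 3 the 3 miR-128 arms stood at smaller log2 fold changes, 0.49 for miR-128-3p, 0.33 for miR-128-1-5p and 0.40 for miR-128-2-5p.

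miR-124-3p, the abundant arm of miR-124, did not separate the genotypes. It stood at 5948, 7726, 10028 and 8091 CPM in knockouts 1 to 4, against 8763, 8256 and 5303 CPM in wild types 1 to 3. Both groups spanned nearly the same range, and the highest and the lowest of the 7 libraries were knockout replicate 3 and wild type replicate 3. The means were 7948 ± 1673 CPM in knockouts, against 7441 ± 1868 CPM in wild types (SD, n = 4 and 3), a log2 fold change of 0.16 ± 0.21 (edgeR adjusted p = 0.76). The 95% interval of the fold, 0.81 to 1.54, includes both a lower and a higher level in knockouts, and the sign turned without wild type replicate 3 (-0.05 ± 0.18).

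miR-124-5p, the minor arm, stood at 25.0, 39.0, 24.1 and 37.4 CPM in knockouts 1 to 4, against 39.7, 32.1 and 21.4 CPM in wild types 1 to 3. The groups overlapped throughout. Its log2 fold change was 0.12 ± 0.27 (edgeR adjusted p = 0.86). It turned negative without knockout replicate 2 (-0.02 ± 0.30) or wild type replicate 3 (-0.12 ± 0.25). miR-124-5p and miR-128-2-5p could not be ordered by level, since their ranges overlapped, whereas miR-128-3p exceeded miR-124-3p, and miR-124-3p exceeded miR-128-1-5p, in each of the 7 libraries.

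**Figure D1:**
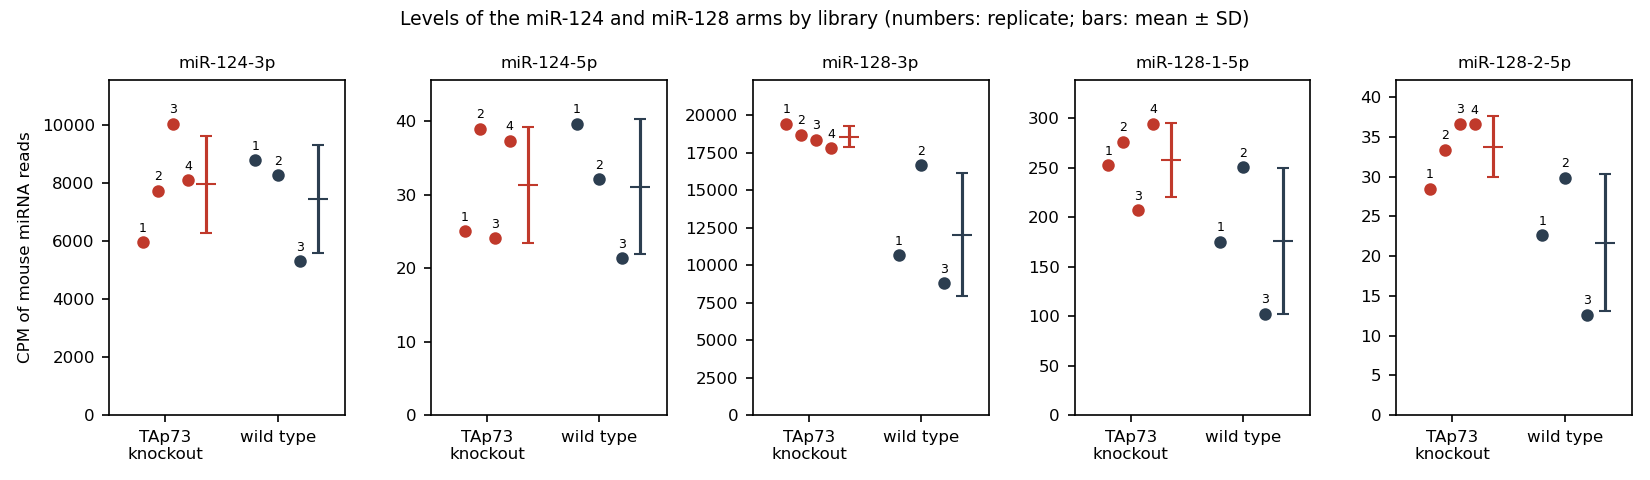
CPM of mouse miRNA reads of the 5 arms (vertical axes from 0) in 4 knockout and 3 wild type libraries, numbered by replicate, with mean ± SD. miR-128-3p sits between 17802 and 19444 CPM in the knockouts and between 8795 and 16667 CPM in the wild types, while the miR-124 arms overlap.

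Placed among all tested miRNAs, the 3 miR-128 arms stood near the upper edge and the miR-124 arms near the middle. Ordered by log2 fold change from the highest, miR-128-2-5p was 8th, miR-128-3p 10th and miR-128-1-5p 14th of 534, and miR-124-3p and miR-124-5p were 151st and 178th. The miR-128-3p difference was known when the members were chosen, and the 3 arms come from the same 2 hairpins. Their ranks are therefore a description and not 3 independent results. The median over all tested miRNAs was -0.02, with 252 of the 534 positive. With library totals alone that median moved to -0.10, and miR-128-3p to 0.63, miR-124-3p to 0.09.

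**Figure D2:**
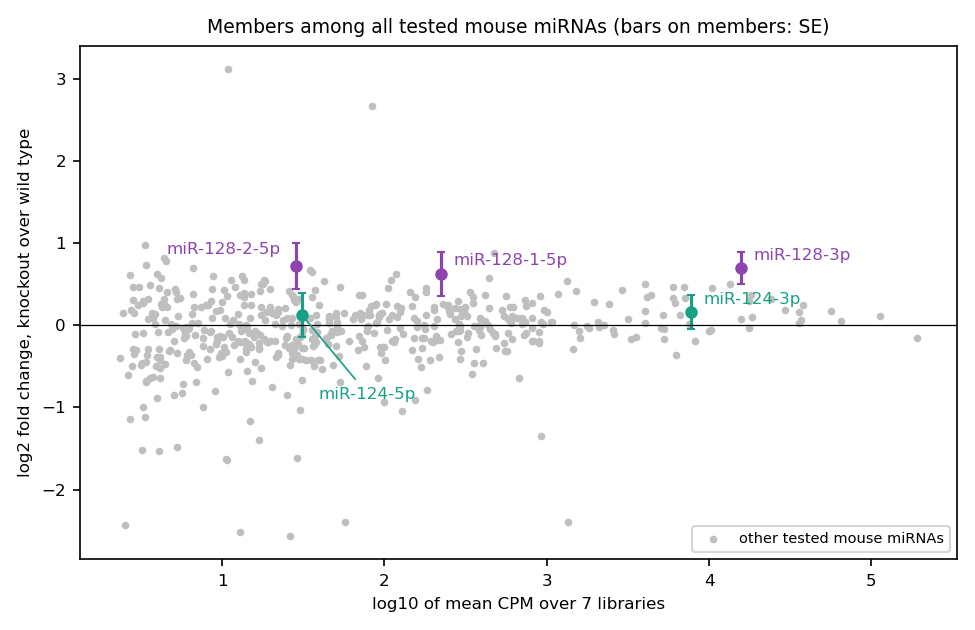
Log2 fold change of knockout over wild type (vertical) against log10 mean CPM (horizontal) for 534 tested mouse miRNAs, members in colour with SE bars. The miR-128 arms lie at 0.63 to 0.72 and the miR-124 arms at 0.12 and 0.16.

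Within a library, the ratio of miR-128-3p to miR-124-3p needs no scaling between libraries, but it holds the same miR-128-3p counts and is no independent measure. It was 3.27, 2.42, 1.83 and 2.20 in knockouts 1 to 4, against 1.22, 2.02 and 1.66 in wild types 1 to 3. Of the 4 knockouts 3 lay above every wild type, and knockout replicate 3 lay below wild type replicate 2. The log2 difference was 0.57 ± 0.27 (SE; exact permutation test, two-sided p = 0.11, adjusted p = 0.57 over the 5 ratios tested). With 4 against 3 libraries the smallest p this test allows is 0.029 before adjustment, so a single ratio could not pass after adjustment over 5. The ratio is therefore given as a description.

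By reads, arm use was lopsided toward 3p in both miRNAs, and more so in miR-124. For each 100 miR-124-3p reads there were 0.421, 0.505, 0.240 and 0.462 miR-124-5p reads in knockouts 1 to 4, against 0.453, 0.389 and 0.403 in wild types 1 to 3. The low value of knockout replicate 3 rests on 23 reads, and its 5p share of 0.240% has a 95% Wilson interval of 0.160% to 0.359%. That interval ends below those of knockout replicates 1, 2 and 4 and wild type replicate 1, and overlaps those of wild type replicates 2 and 3. The mean was 0.407 ± 0.116 in knockouts and 0.415 ± 0.033 in wild types (SD, n = 4 and 3; exact permutation p = 0.97, two-sided).

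miR-128 had the higher ratio of 5p to 3p reads. Reads are not molecules, so whether the 2 miRNAs differ in the strand kept was not tested. Summed over the 2 copies, there were 1.45, 1.66, 1.33 and 1.86 5p reads per 100 miR-128-3p reads in knockouts 1 to 4, against 1.86, 1.68 and 1.31 in wild types 1 to 3. The groups covered the same range, with means of 1.57 ± 0.23 in knockouts and 1.62 ± 0.28 in wild types (SD, n = 4 and 3; exact permutation p = 0.89, two-sided). In each of the 7 libraries this ratio was above that of miR-124. Over all reads, 3p outnumbered 5p by 62.9 to 1 in miR-128 and by 227 to 1 in miR-124.

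Between the copies, the 5p arm of Mir128-1 was the more abundant in every library. For each 100 miR-128-1-5p reads there were 11.3, 12.1, 17.7 and 12.4 miR-128-2-5p reads in knockouts 1 to 4, against 12.9, 11.9 and 12.3 in wild types 1 to 3. Knockout replicate 3 was the highest, on 35 and 198 reads, and the 95% Wilson interval of its share overlapped those of each of the other 6 libraries. The means were 13.4 ± 2.92 in knockouts and 12.4 ± 0.50 in wild types (SD, n = 4 and 3; exact permutation p = 0.89, two-sided). How much of the miR-128-3p pool comes from each copy was not measured, since the 3p reads are identical.

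**Figure D3:**
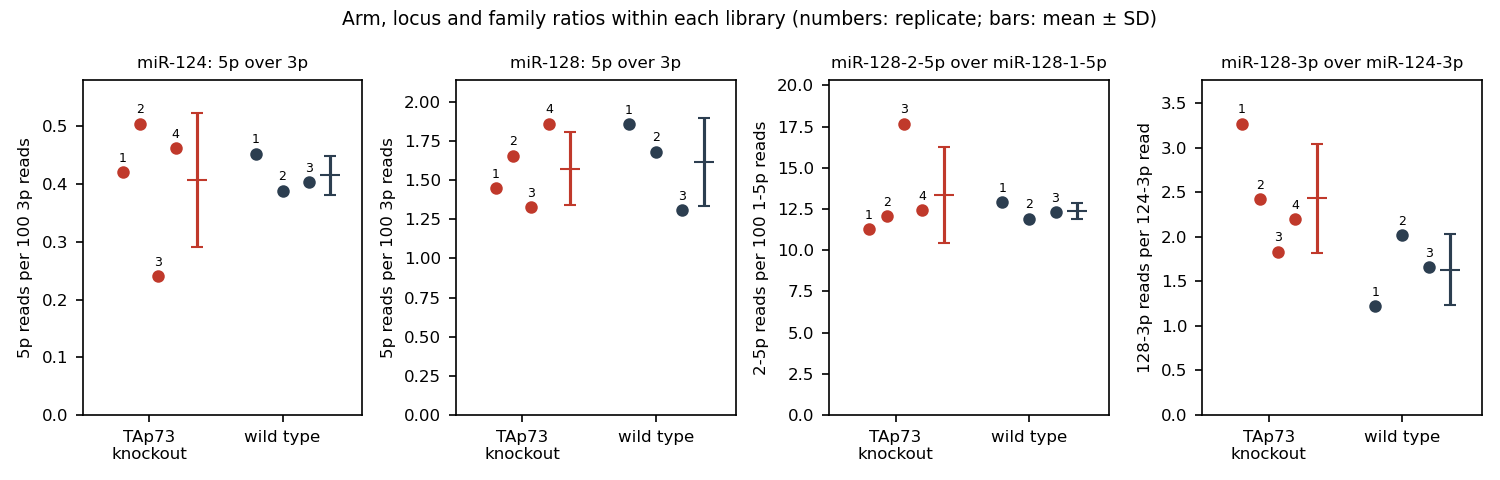
Read ratios within each library (vertical axes from 0): 5p over 3p for miR-124 and miR-128, miR-128-2-5p over miR-128-1-5p, and miR-128-3p over miR-124-3p, numbered by replicate with mean ± SD. Each ratio overlaps between genotypes, the last at 1.83 to 3.27 in knockouts and 1.22 to 2.02 in wild types.

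Across the 7 libraries miR-128-3p was compared with each of its 5p arms. On log2 CPM, miR-128-3p and miR-128-1-5p had Pearson's r = 0.91 (exact permutation p = 0.012, adjusted p = 0.039 over 6 pairs) and Spearman's rho = 0.68 (exact permutation p = 0.11, adjusted p = 0.42). Without wild type replicates 1 and 3, the 2 libraries farthest from the median, r was -0.06, so the relation rests on those libraries, and miR-128-3p spans only 16667 to 19444 CPM in the 5 others. miR-128-3p and miR-128-2-5p gave r = 0.91 (exact permutation p = 0.013, adjusted p = 0.039) and rho = 0.54 (exact permutation p = 0.24, adjusted p = 0.47), and r = -0.08 without the same libraries. After each genotype's mean was subtracted, r over the 7 libraries was 0.85 with miR-128-1-5p and 0.81 with miR-128-2-5p. In miR-128-3p the wild types spread over an SD of 34.1% of their mean and the knockouts over 3.70%. These centred values therefore reflect mainly the 3 wild types. Across knockouts 1 to 4 miR-128-3p fell at each step, from 19444 to 17802 CPM. Over the same 4 libraries miR-128-2-5p was lowest in replicate 1, at 28.5 CPM, and miR-128-1-5p was highest in replicate 4, at 294.5 CPM. The miR-124 arms gave r = 0.51 (exact permutation p = 0.25, adjusted p = 0.30) and rho = 0.32 (p = 0.50, adjusted p = 0.60, exact permutation), and r turned to -0.81 without knockout replicate 1 and wild type replicate 3. miR-124-3p and miR-128-3p gave r = 0.38 (exact permutation p = 0.40, adjusted p = 0.40) and rho = -0.04 (exact permutation p = 0.96, adjusted p = 0.96), with r = -0.12 without those 2 libraries. In wild type replicate 1 miR-124-3p, at 8763 CPM, was the highest wild type, while miR-128-3p, at 10670 CPM, lay below every knockout. The 2 were thus not shown to be a single measure of neural tissue.

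Wild type replicate 3 was the lowest of the 7 libraries in each of the 5 arms and the highest in miR-204-5p. Against miR-204-5p, miR-124-3p had r = -0.70 (exact permutation p = 0.075, adjusted p = 0.15) and rho = -0.64 (exact permutation p = 0.14, adjusted p = 0.42), with r = -0.63 without knockout replicate 3 and wild type replicate 2. miR-128-3p had r = -0.56 (exact permutation p = 0.14, adjusted p = 0.22) and rho = -0.39 (exact permutation p = 0.40, adjusted p = 0.59), with r = -0.79 without them. All values are shares of the same reads, and neither relation passed.

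Set against the choroid plexus markers, the sum of miR-124-3p and miR-128-3p spread more within each genotype than between their means. The ratio of miR-124-3p plus miR-128-3p to miR-204-5p plus miR-211-5p was 3.42, 3.75, 14.1 and 5.18 in knockouts 1 to 4, against 2.34, 12.4 and 1.20 in wild types 1 to 3. The denominator is nearly miR-204-5p alone, with 213975 reads over all libraries, against 119 of miR-211-5p. Knockout replicate 3 and wild type replicate 2 stood high, and the other wild types were the lowest. The log2 difference was 0.76 ± 1.11 (exact permutation p = 0.46, adjusted p = 0.97 over the 5 ratios). In such bulk tissue, fewer cells of a type and less RNA per cell cannot be told apart, and the part of the dissection in the miR-128 levels was not tested.

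The miRNAs that followed miR-128-3p most closely over the 7 libraries were 4 others found in neural cells and miR-674-3p. miR-9-5p, of neural progenitors and glia, had r = 0.96 on log2 CPM. Then came miR-132-3p (0.95) and miR-212-3p (0.92), which neuronal activity induces, miR-674-3p (0.92) and miR-132-5p (0.91). These were the only 5 above 0.9 among 529 other tested miRNAs, whose median r was -0.19.

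miR-9-5p stood at 26450, 24751, 25628 and 27063 CPM in knockouts 1 to 4, against 21033, 25654 and 19319 CPM in wild types 1 to 3. Again wild type replicate 2 lay among the knockouts. Its log2 fold change was 0.31 ± 0.13 (edgeR adjusted p = 0.38). miR-132-3p stood at 4904, 4718, 3915 and 4705 CPM in knockouts, against 3286, 4166 and 2674 CPM in wild types, at 0.51 ± 0.17 (adjusted p = 0.27). After each genotype's mean was subtracted, 3 of these 5 names were again among the 5 closest. Wild type replicates 1 and 3 were the lowest libraries in miR-128-3p, miR-9-5p and miR-132-3p alike. How far these correlations rest on those libraries, as they did for the 5p arms, was not tested.

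A different set followed miR-124-3p. The closest were miR-377-5p (r = 0.96), miR-186-5p (0.96), miR-191-5p (0.95), miR-9-3p (0.94) and miR-194-5p (0.93), against a median r of -0.10. None of these 5 was among the 5 closest to miR-128-3p. After each genotype's mean was subtracted, 1 of them, miR-186-5p, was again among the 5 closest, so most of these names depended on how the libraries were centred.

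Other neuron-enriched miRNAs stood on both sides of 0. Of 17 such miRNAs, chosen with earlier results of these libraries known, 16 were tested, 9 positive and 7 negative, with a median log2 fold change of 0.02, beside -0.02 over all tested. edgeR called 0 of them, with 3 of 16 at an unadjusted p under 0.05, beside 12.9% of all tested. The most abundant was miR-132-3p, above. The 3 others with the smallest p-values were miR-129-2-3p, an arm of the brain-enriched miR-129, at -0.46 ± 0.17 (edgeR adjusted p = 0.35), the minor arm miR-138-1-3p at 0.68 ± 0.28 (adjusted p = 0.38) and miR-212-5p at 0.43 ± 0.20 (adjusted p = 0.41). Their summed level ran from 16274 to 19687 CPM in knockouts, against 12521 to 18912 CPM in wild types.

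Lists of other cell types were summed beside them. The 4 progenitor and astrocyte members, led by miR-9-5p, had a median of 0.25 with 4 of 4 positive and 0 called, and sums of 35763 to 41689 CPM in knockouts, against 28588 to 34839 CPM in wild types. Oligodendrocyte members, led by miR-219a-2-3p at 444.5 ± 69.2 CPM in the knockouts, against 504.0 ± 143.1 CPM in wild types, had a median of 0.06 with 2 of 4 positive. miR-219a-5p was listed at 0 in each library, beside 14716 reads in all for miR-219a-2-3p. Whether this and the other zeros given below come from how reads were counted was not tested, so they are not read as absence. The sums were 603.1 to 839.2 CPM in knockouts, against 604.5 to 1001 CPM in wild types.

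Choroid plexus members, led by miR-204-5p, had a median of -0.36 with 0 of 3 positive, and sums of 2016 to 7435 CPM in knockouts, against 2015 to 11789 CPM in wild types, with miR-211-3p at 0 in each library. Leukocyte and microglia members, led by miR-150-5p, had a median of 0.35 with 5 of 5 positive, and sums of 590.6 to 790.5 CPM in knockouts, against 534.9 to 599.4 CPM in wild types. Vessel wall members, led by miR-143-3p, had a median of 0.04 with 3 of 5 positive, sums of 16376 to 21321 CPM in knockouts, against 16842 to 25414 CPM in wild types, and miR-126a-5p at 0 in each library. Erythroid members, led by miR-451a, had a median of 0.54 with 3 of 3 positive, and sums of 138.2 to 261.8 CPM in knockouts, against 139.3 to 195.0 CPM in wild types. No member of these lists was called by edgeR.

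The multiciliated list held all 6 calls of the edgeR fit, 2 higher and 4 lower in knockouts among its 6 tested members. Its sums of 386.4 to 760.5 CPM in knockouts, against 1291 to 3675 CPM in wild types, were led by miR-34c-5p, with miR-449b at 0 in each library. By that sum wild type replicate 2, at 1291 CPM, was the lowest wild type but above every knockout. It was also the lowest wild type in the choroid plexus sum, at 2015 CPM, and the wild type nearest the knockouts in miR-128-3p. Whether these are related was not tested, as they rest on a single library.

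**Figure D4:**
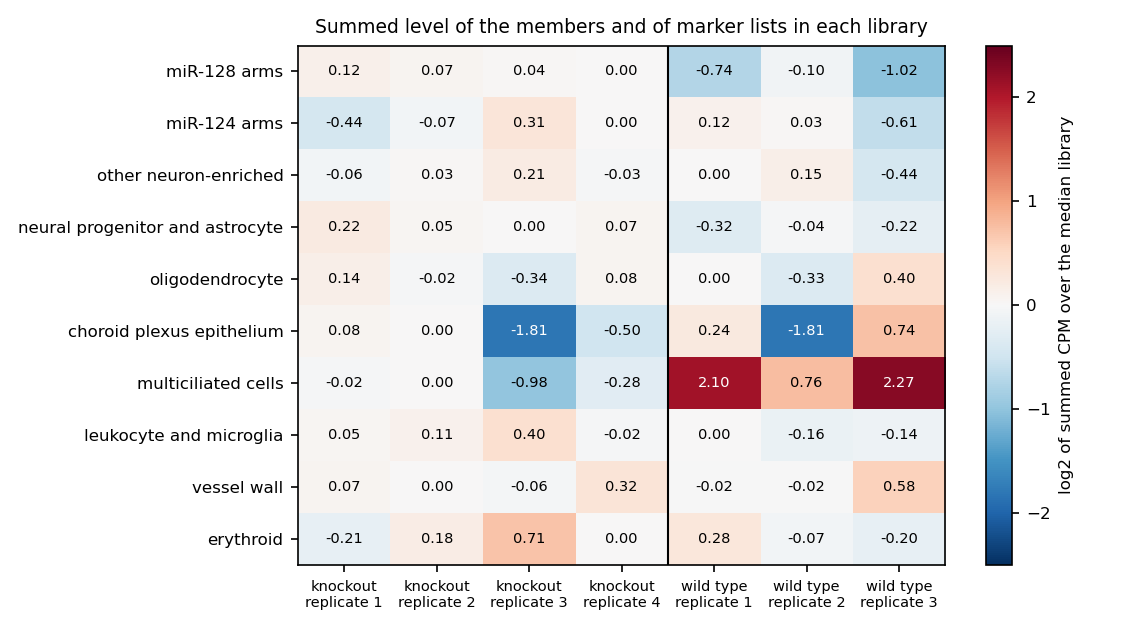
Log2 of the summed CPM over the median library for the miR-128 and miR-124 arms and 8 marker lists (rows) in the 4 knockout and 3 wild type libraries (columns), with the value in each cell. Wild type replicate 3 is low for both miRNAs (-1.02 and -0.61) and high for choroid plexus (0.74), while knockout replicate 3 and wild type replicate 2 are low for choroid plexus (-1.81 each).

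Across the 17 alternatives, the log2 fold change of miR-128-3p kept its sign, between 0.49 and 1.04, and was called in 3, while miR-124-3p ran from -0.05 to 0.30 and was called in 0.

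**Figure D5:**
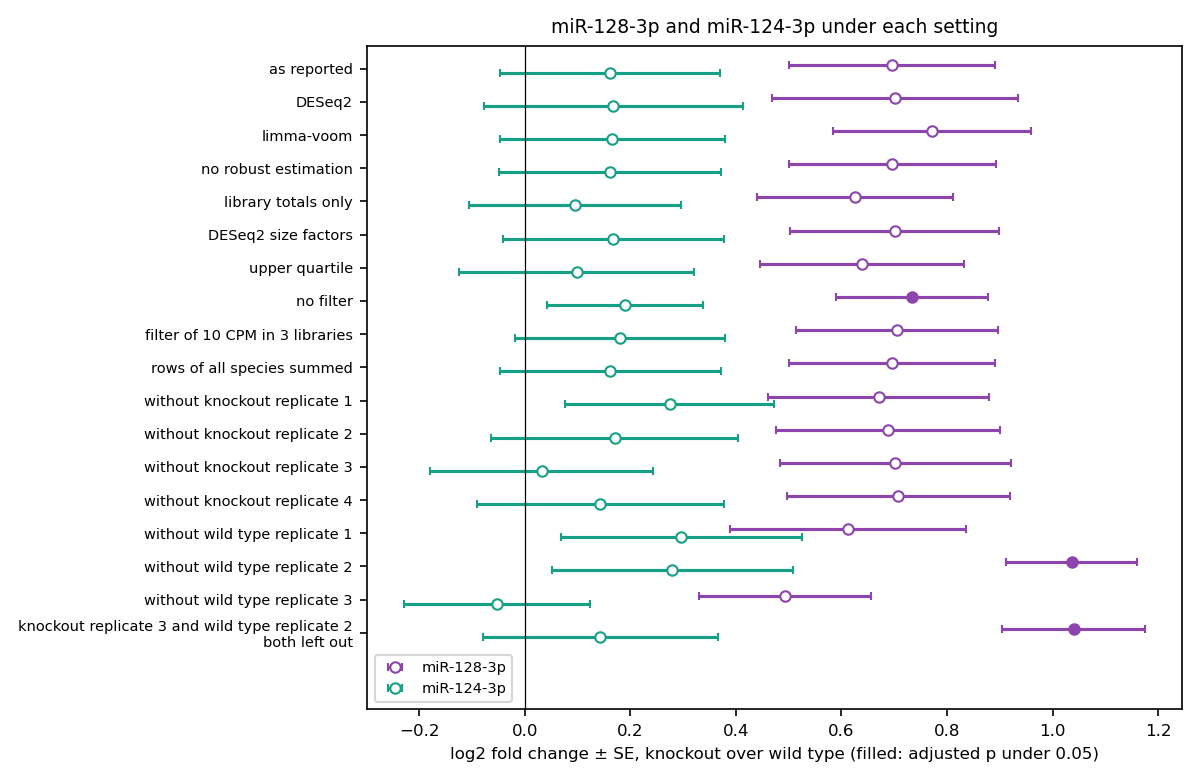
Log2 fold change ± SE of miR-128-3p and miR-124-3p (horizontal) as reported and under each of 17 alternatives (rows), filled where the adjusted p is under 0.05. miR-128-3p is filled with no filter, without wild type replicate 2, and without that library and knockout replicate 3, and miR-124-3p under none.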

How the data were processed

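The deposited tables, 1 per library, hold unnormalized read counts for each miRNA name. Small RNA libraries were TruSeq, made from RNA extracted by phenol/chloroform, per the labels. Reads are not molecules, so the Wilson intervals of read shares cover counting error only. The intervals of fold changes come from the edgeR fit and also include the spread between libraries. Replicates are numbered in accession order. Named without a role, per the submitters' processing notes, are mm10, DESeq2 and bcl2fastq 2.17.1.14. The aligner, counter and annotation were not given in the sources used here. Rows of other species held 0.00896% to 0.0396% of the miR-124 and miR-128 reads. The 5 unassigned lines hold no reads.

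Levels are counts per 1000000 mouse miRNA reads. Fold changes are knockout over wild type from edgeR 4.0.16 in R 4.3.3 over all mouse miRNA rows: TMM scaling, filterByExpr (minimum count 10, total 15), robust quasi-likelihood test, Benjamini-Hochberg adjustment, called under 0.05. The fit was tested on simulated data with fold changes larger than those reported for the members, so that check does not cover effects of their size. Ratios had 0.5 reads added to each count and an exact permutation test over 35 labelings. Correlations used all 5040 orderings.

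Members, lists and tests were chosen with earlier results of these data known. Named are the members, the 5 miRNAs closest to miR-124-3p and miR-128-3p by Pearson's r, those sharing a seed, the most abundant of each list and the 4 smallest p-values of the neuron list. miR-27a-3p and miR-27b-3p were added after their sequences were seen, and miR-449a-5p after its call was seen. Alternatives were DESeq2 1.42.0, limma-voom (limma 3.58.1), other scalings, filters and pseudocounts, summed species rows, and left-out libraries.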

Additional observations from a re-analysis of the deposited data

How the results depend on the processing

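Of the 6 calls over all miRNAs, DESeq2 gave 14 in their place (with no adjusted p for 94 miRNAs), no filter 19, and the 5 libraries other than knockout replicate 3 and wild type replicate 2 also 19. Leaving out single libraries gave 3 (wild type replicate 1) to 14 (wild type replicate 2). The cause was not tested. With no filter miR-128-3p stood at 0.73 (edgeR adjusted p = 8.8e-05) and miR-128-1-5p at 0.67 (0.035), both called, and with that pair of libraries left out they were called at 1.04 and 1.08 (adjusted p = 0.0015 and 0.046). Over all 17 alternatives the adjusted p ran from 8.8e-05 to 0.35 for miR-128-3p and from 0.035 to 0.61 for miR-128-1-5p, and miR-128-2-5p, at 0.40 to 1.05, was called in 0.

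With single libraries left out, log2 fold changes ranged over 0.49 to 1.04 for miR-128-3p, -0.052 to 0.30 for miR-124-3p and -0.12 to 0.35 for miR-124-5p. The log2 difference in arm ratio ranged over -0.20 to 0.15 for miR-124 and -0.18 to 0.071 for miR-128, and that in the ratio of the miR-128 5p arms over -0.061 to 0.16. With the pair left out these ratios stood at 0.11, 0.077 and -0.089, signs opposite to those reported. The other 2 ratios kept their sign in 11 of 11 alternatives. With 3 against 3 or 4 against 2 libraries the exact test cannot pass. No paired analysis was possible because the labels carry no replicate numbers shared between genotypes. The few reads of miR-124-5p and miR-128-2-5p, 23 and 35 in knockout replicate 3, limit their ratios there.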
